A study of Homo sapiens with 14 samples.

Results

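Expression of 31 p53 target genes was compared across 12 RNA-seq libraries of U251MG cells, a line established from a human glioblastoma. The genes were taken by name from 2 deposited tables of 24489 entries each, and all 31 were found in both tables. They were drawn from lists of genes that p53 is known to switch on, without the cell-cycle inhibitor gene CDKN1A. Radioresistant cells had received X-rays as 30 fractions of 2 Gy, 60 Gy in sum, and control cells were labelled as controls. Radioresistant cells with the hairpin shIFI16 were set against radioresistant cells with the hairpin shNC. Every group held 3 libraries and carried the genotype label WT, which does not speak for the state of p53 in this line. The labels do not say whether the radioresistant line is 1 clone, how long after the last fraction RNA was taken, or whether replicates came from separate cultures. The p-values therefore speak for the spread among these libraries, which may be technical. They name 1 hairpin against IFI16, so an off-target effect cannot be told apart from loss of IFI16. ATAC-seq of 1 radioresistant and 1 control library was used beside the expression data.

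The tumour suppressor p53 is a transcription factor that is stabilised after DNA damage and binds a response element made of a pair of decamers in its target genes. Its targets halt the cell cycle, repair DNA, trigger cell death and, through the ubiquitin ligase MDM2, limit p53 itself. Many of the genes here are also known to be switched on by other factors, such as ATF4 and CHOP in the integrated stress response. IFI16, a sensor of DNA in the nucleus, is known to bind p53. The files hold no protein data, so the activity of p53 was not measured.

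Values were deposited in TPM (transcripts per 1000000 transcripts, a unit scaled for gene length), and every library summed to 1000000, so the depth behind them is unknown. Columns of the tables carry codes only, and the groups of the columns were read from those codes. IFI16 stood at 7.68, 7.90 and 6.71 TPM in shIFI16 libraries, against 125, 140 and 127 TPM in shNC libraries, which went with the labels. The codes of radioresistant and control columns have no such check. IFI16 stood at 250.8, 309 and 243 TPM in radioresistant libraries, against 70.3, 71.1 and 49.6 TPM in control libraries. Libraries of a group correlated across genes, which are not replicates, with a Pearson's r on the log2(TPM + 1) scale of 0.990 to 0.992 between radioresistant, 0.975 to 0.993 between control, 0.990 to 0.992 between shIFI16 and 0.992 to 0.993 between shNC libraries. Control replicate 3 stood apart from the other controls. Summed over 6 immune markers, libraries held 19.4 to 23.5 TPM in radioresistant cells against 15.3 to 20.6 TPM in control cells, and 14.1 to 17.8 TPM in shIFI16 cells against 37.5 to 40.4 TPM in shNC cells. CD68 made up most of these sums, and CD3E was listed at 0 in all 12 libraries. The sum over 5 endothelial markers was 4.87 to 5.12 TPM in radioresistant against 12.7 to 14.7 TPM in control libraries, and 11.7 to 14.4 TPM in shIFI16 against 6.02 to 6.68 TPM in shNC libraries. CDH5 averaged 0.674 TPM in radioresistant against 7.57 TPM in control cells, and KDR 3.97 against 5.52 TPM. The remaining markers of this sum, PECAM1, VWF and CLDN5, stayed under 1 TPM in all radioresistant and control libraries. Of the 7 astrocyte and glioma markers, 6 were tested in the first comparison and all 6 fell in radioresistant cells. Their sum was 5840 to 6295 TPM in radioresistant against 13662 to 13893 TPM in control libraries. GFAP had the largest fall of these, by 5.66, and averaged 80.6 TPM in radioresistant against 4011 TPM in control cells. In the second comparison 3 of 5 rose and 2 fell in shIFI16 cells, with sums of 4920 to 5733 TPM against 6757 to 7386 TPM in shNC libraries. The part of these markers in the results below was not tested. In such bulk samples, fewer cells of a kind and less RNA per cell cannot be told apart.

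Promoter windows of RefSeq (GRCh38.p14, 250 bases before to 50 after a gene start) were at hand for 24 of the 31 genes. They are shown to place matches to the p53 response element, where a window holds one, beside the expression of the genes. Sequence outside these windows was not searched. The search asked for a pair of p53 decamers, 0 to 13 bases apart, with at most 2 mismatches in all and the C and G of each core kept. The decamer reads the same on both strands, so 1 strand was searched. A matching pair was found at 5 of the 24 genes (20.8%) and at 3.62% of the 27305 genes with a window, and a pair without any mismatch at DDB2 and at 0.037% of all genes. Single decamers without mismatch were found at 7 of the 24 genes, which were PLK2, SESN1, FAS, DDB2, EI24, AEN and FDXR, and at 8.06% of all genes. Capitals mark the matched pair, spacer included, and each window runs 5′ to 3′ on the strand of the gene. The DDB2 window (chr11:47214724-47215023, plus strand) holds its pair 5 bases past the start, with a spacer of 1 base. That of MDM2 (chr12:68808767-68809066, plus strand) covers its internal promoter, which is known as the one that responds to p53. Those of FAS (chr10:88991181-88991480, plus strand) and AEN (chr15:88621090-88621389, plus strand) belong to genes that rose in radioresistant cells. DDB2, MDM2 and FDXR, which also hold a pair, did not pass the test given below, with log2(TPM + 1) differences of -0.28, 0.03 and 0.03. Over all genes tested 16.9% rose, and a group of 5 genes is too small to be set apart from that background. A relation between a pair and expression was not tested. The FDXR window (chr17:74872945-74873244, minus strand) has a spacer of 10 bases. A match describes letters only and does not show binding.
DDB2: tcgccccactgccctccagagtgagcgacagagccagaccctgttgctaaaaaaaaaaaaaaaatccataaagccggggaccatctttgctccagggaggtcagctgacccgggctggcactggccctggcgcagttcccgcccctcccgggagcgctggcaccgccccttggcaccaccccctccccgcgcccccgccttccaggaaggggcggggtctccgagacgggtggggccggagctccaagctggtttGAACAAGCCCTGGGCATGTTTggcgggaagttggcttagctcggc
MDM2: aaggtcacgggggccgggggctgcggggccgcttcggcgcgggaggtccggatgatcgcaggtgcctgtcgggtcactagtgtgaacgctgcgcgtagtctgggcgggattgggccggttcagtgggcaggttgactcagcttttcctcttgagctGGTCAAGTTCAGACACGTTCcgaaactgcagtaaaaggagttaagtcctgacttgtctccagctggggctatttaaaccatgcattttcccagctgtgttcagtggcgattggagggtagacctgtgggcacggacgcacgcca
FAS: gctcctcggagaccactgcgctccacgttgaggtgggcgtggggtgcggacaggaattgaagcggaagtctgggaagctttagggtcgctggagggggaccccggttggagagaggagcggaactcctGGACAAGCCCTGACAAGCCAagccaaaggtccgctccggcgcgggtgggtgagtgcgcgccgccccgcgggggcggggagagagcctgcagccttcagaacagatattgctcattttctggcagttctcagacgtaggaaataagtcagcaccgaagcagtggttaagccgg
AEN: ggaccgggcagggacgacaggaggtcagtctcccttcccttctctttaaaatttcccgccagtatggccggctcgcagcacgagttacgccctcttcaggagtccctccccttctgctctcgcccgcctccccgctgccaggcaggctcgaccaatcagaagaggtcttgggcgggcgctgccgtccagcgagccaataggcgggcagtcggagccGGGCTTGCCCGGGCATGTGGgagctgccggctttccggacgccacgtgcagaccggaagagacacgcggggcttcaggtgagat
FDXR: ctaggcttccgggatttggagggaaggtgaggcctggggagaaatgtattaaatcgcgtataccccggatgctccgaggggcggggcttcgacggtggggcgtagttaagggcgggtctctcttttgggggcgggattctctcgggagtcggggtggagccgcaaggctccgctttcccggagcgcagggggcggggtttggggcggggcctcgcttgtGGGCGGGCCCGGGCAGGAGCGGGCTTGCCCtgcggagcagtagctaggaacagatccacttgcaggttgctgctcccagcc

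In radioresistant cells the p53 targets did not move as a block. Of 29 tested genes, 8 rose, 6 fell and 15 did not pass the test. GADD45A, PHLDA3, PLK2, GDF15, PMAIP1, AEN, FAS and BAX rose, and BTG2, TP53INP1, ZMAT3, TP53I3, XPC and EI24 fell. The largest changes were a rise of GADD45A by 1.89 and a fall of BTG2 by 1.69 on the log2(TPM + 1) scale. Over all 13127 genes tested, 43.9% passed (16.9% higher and 27.0% lower), so the 48.3% of these genes that passed lay near the background. Their median change was close to 0, against -0.11 over all genes, and this median of all genes moved to 0.01 with median-ratio scaling. Taken against the median of all genes, each change between radioresistant and control cells would stand 0.11 higher. With that scaling 50.6% of the genes called were higher, against 38.5% as deposited, while the numbers of p53 targets called stayed at 8 and 6. A gene was tested where at least 3 of the 6 libraries held 1 TPM or more. Calls had a Benjamini-Hochberg adjusted p under 0.05 in limma. TNFRSF10A, which encodes a death receptor for TRAIL, was listed at 0 in all 12 libraries, and SPATA18, a gene of mitochondrial quality control, did not exceed 0.0400 TPM in any, so both went untested.

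**Figure D1:**
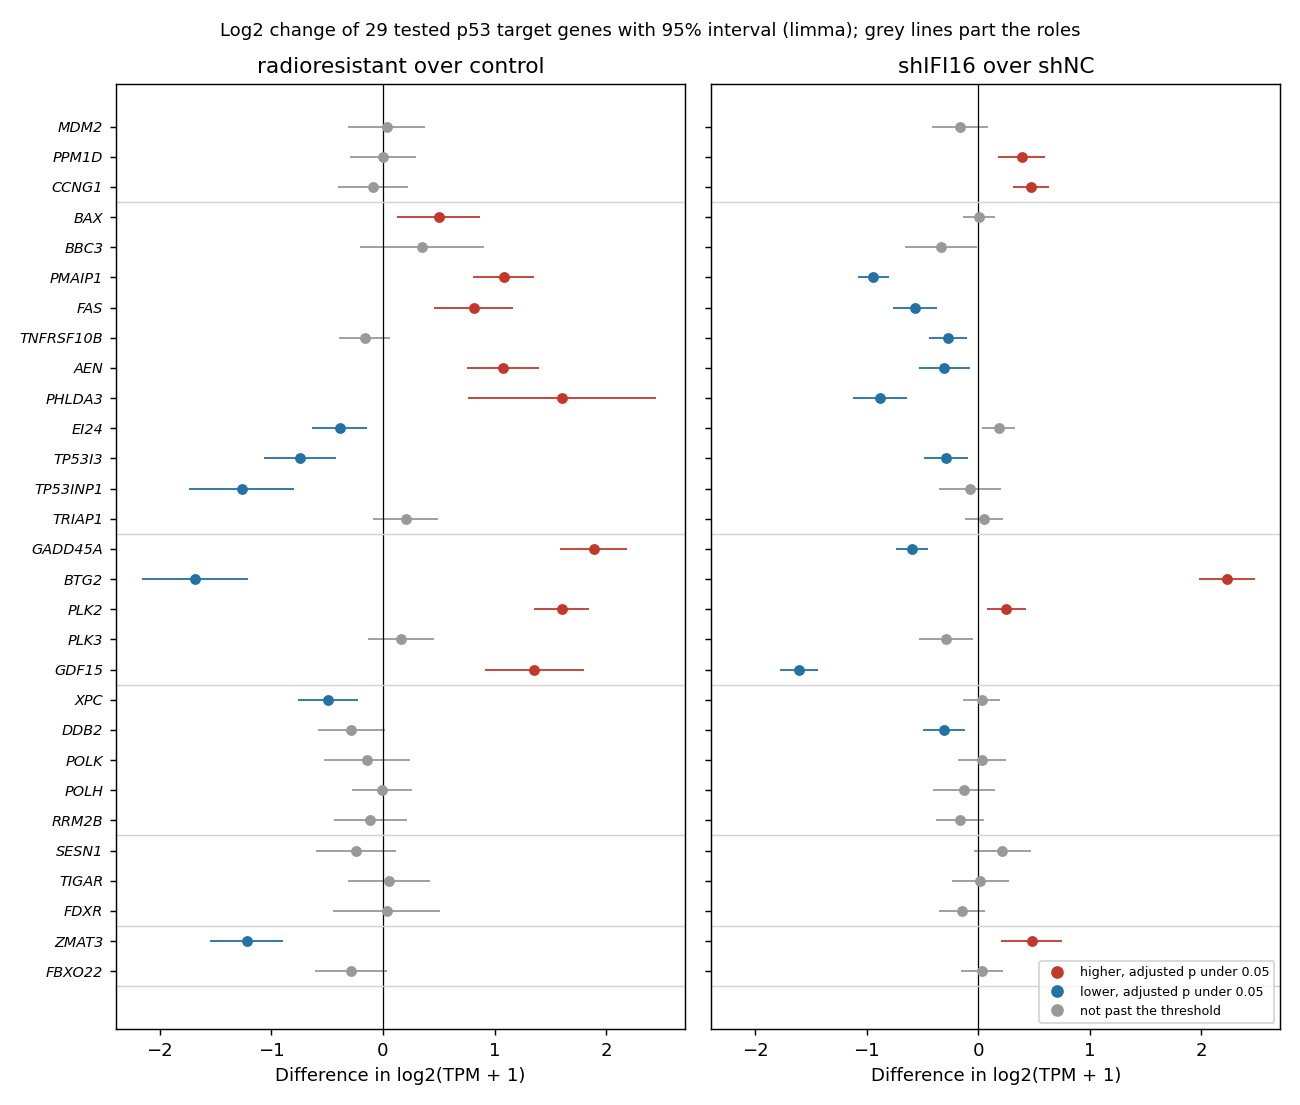
Log2(TPM + 1) differences of the 29 tested p53 targets with 95% intervals, radioresistant over control on the left and shIFI16 over shNC on the right, grouped by role; red marks genes higher and blue genes lower past an adjusted p of 0.05. GADD45A lies farthest right and BTG2 farthest left in the first comparison, and BTG2 lies farthest right and GDF15 farthest left in the second.

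The 3 genes that feed back on p53 did not pass, where 43.9% of all genes did, a group too small to be set apart from that background. MDM2, the ligase that degrades p53, stood at 47.1, 61.1 and 50.9 TPM in radioresistant libraries, against 60.0, 54.9 and 41.6 TPM in control libraries. The groups overlapped, with control replicate 3 the lowest of all, and the difference was 0.03 (95% interval -0.31 to 0.38, adjusted p = 0.88). PPM1D, which encodes the phosphatase WIP1 that dampens p53 signalling, had an interval of -0.30 to 0.30, and CCNG1, the cyclin G1 gene, one of -0.40 to 0.22. PPM1D ranged from 11.9 to 13.9 TPM in radioresistant and from 11.7 to 14.4 TPM in control libraries. CCNG1 ranged from 88.0 to 116 TPM in radioresistant and from 90.6 to 119 TPM in control libraries.

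Of 11 tested genes of cell death and survival, 5 rose and 3 fell in radioresistant cells, against 16.9% and 27.0% of all genes. PMAIP1 encodes NOXA, a BH3-only protein that sets off mitochondrial apoptosis. It stood at 134, 148 and 139 TPM in radioresistant libraries, against 75.3, 65.6 and 56.8 TPM in control libraries. Every radioresistant library lay above every control library, and PMAIP1 rose by 1.08 (SE 0.123, limma adjusted p = 6.7e-05). FAS, the death receptor for FAS ligand, stood at 16.4, 21.1 and 16.2 TPM in radioresistant libraries, against 10.3, 11.02 and 7.97 TPM in control libraries. FAS rose by 0.81 (SE 0.159, adjusted p = 0.0022), again with no overlap. AEN, an exonuclease gene that promotes apoptosis, stood at 34.2, 30.3 and 41.9 TPM in radioresistant libraries, against 14.9, 15.7 and 17.998 TPM in control libraries. It rose by 1.08 (SE 0.146, adjusted p = 2.2e-04).

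PHLDA3, which encodes an inhibitor of AKT, had a wider spread. It stood at 21.4, 12.8 and 17.8 TPM in radioresistant libraries, against 3.42, 3.36 and 9.80 TPM in control libraries. Control replicate 3 lay far above the other 2 controls, yet below all radioresistant libraries, and the rise was 1.60 (SE 0.363, adjusted p = 0.0090). BAX, a pore-forming protein of the mitochondrial outer membrane, stood at 288, 219.8 and 278 TPM in radioresistant libraries, against 147, 182 and 232 TPM in control libraries. These groups overlapped, and BAX rose by 0.50 (SE 0.168, adjusted p = 0.033). The call of BAX ended without radioresistant replicate 1 (adjusted p = 0.11), radioresistant replicate 3 (0.12), control replicate 1 (0.096) or control replicate 2 (0.083), and over all alternatives it lay between 4.1e-04 and 0.12. BBC3, which encodes the BH3-only protein PUMA, stood at 7.37, 6.05 and 5.27 TPM in radioresistant libraries, against 2.93, 4.37 and 7.47 TPM in control libraries. Control replicate 3 was the highest of the 6, and the difference of 0.35 (SE 0.249, adjusted p = 0.28) did not pass. Without control replicate 3 it was 0.64 and passed (adjusted p = 0.0063, range 0.0063 to 0.77 over the alternatives).

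The second TRAIL receptor gene, TNFRSF10B, stood at 74.5, 69.7 and 77.4 TPM in radioresistant libraries, against 85.3, 80.1 and 83.2 TPM in control libraries. The groups did not overlap, but the difference of -0.16 (95% interval -0.39 to 0.07, adjusted p = 0.22) did not pass. TP53INP1, a stress-induced gene of autophagy and cell death, stood at 7.95, 7.998 and 4.18 TPM in radioresistant libraries, against 19.4, 16.8 and 14.9 TPM in control libraries. It fell by 1.26 (SE 0.212, adjusted p = 8.6e-04), with no overlap. TP53I3, a quinone oxidoreductase gene tied to oxidative stress, stood at 27.9, 23.4 and 20.9 TPM in radioresistant libraries, against 36.3, 39.4 and 47.1 TPM in control libraries, and fell by 0.74 (SE 0.147, adjusted p = 0.0023). EI24, a gene of the endoplasmic reticulum and autophagy, stood at 115, 123 and 124 TPM in radioresistant libraries, against 172, 162 and 141 TPM in control libraries. EI24 fell by 0.39 (SE 0.110, adjusted p = 0.016). That call ended without radioresistant replicate 1 (adjusted p = 0.063), control replicate 1 (0.058) or control replicate 2 (0.078), within a range of 9.2e-04 to 0.078. TRIAP1, a small survival factor of the mitochondrion, did not pass (difference 0.20, interval -0.09 to 0.50).

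Growth arrest and stress genes held the largest changes, in both directions. GADD45A, a stress sensor that slows the cell cycle, stood at 142, 136 and 175 TPM in radioresistant libraries, against 40.9, 34.7 and 44.1 TPM in control libraries. It rose by 1.89 (SE 0.135, limma adjusted p = 2.6e-06). PLK2, a stress-responsive polo-like kinase gene, stood at 201, 243 and 242 TPM in radioresistant libraries, against 73.4, 72.1 and 78.1 TPM in control libraries, and rose by 1.60 (SE 0.113, adjusted p = 2.3e-06). GDF15, a secreted stress cytokine, stood at 116, 107 and 73.5 TPM in radioresistant libraries, against 30.6, 34.4 and 48.7 TPM in control libraries, and rose by 1.36 (SE 0.202, adjusted p = 4.3e-04). For all 3 genes the groups were apart. BTG2, an antiproliferative gene that also promotes mRNA decay, went the other way, at 4.87, 4.42 and 2.17 TPM in radioresistant libraries, against 13.9, 14.5 and 13.5 TPM in control libraries. It fell by 1.69 (SE 0.214, adjusted p = 1.4e-04). PLK3, another polo-like kinase gene, did not pass (difference 0.16, interval -0.14 to 0.46).

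Of 5 DNA repair genes 1 fell, and none of 3 tested genes of metabolism passed. Over all genes 27.0% fell and 43.9% passed, and groups this small cannot be set apart from that background. XPC, which finds lesions for nucleotide excision repair, stood at 25.5, 23.9 and 20.6 TPM in radioresistant libraries, against 32.5, 33.5 and 33.5 TPM in control libraries, and fell by 0.49 (SE 0.123, adjusted p = 0.0082). Its partner in damage recognition, DDB2, stood at 19.2, 18.2 and 14.5 TPM in radioresistant libraries, against 20.1, 21.01 and 22.2 TPM in control libraries, a difference of -0.28 (adjusted p = 0.12). The translesion polymerase genes POLK and POLH and the ribonucleotide reductase gene RRM2B did not pass, with differences of -0.14, -0.01 and -0.11. POLK averaged 24.0 ± 2.67 TPM in radioresistant and 27.0 ± 6.19 TPM in control cells, POLH 14.9 ± 0.459 and 15.1 ± 1.14 TPM, and RRM2B 35.6 ± 5.11 and 38.6 ± 5.25 TPM (SD, n = 3 each). All 3 overlapped between the groups. Without control replicate 3 POLK fell by 0.34 (adjusted p = 0.030, range 0.030 to 0.92). SESN1, a regulator of mTORC1, TIGAR, a phosphatase that slows glycolysis, and FDXR, a mitochondrial reductase, did not pass either, with differences of -0.24, 0.05 and 0.03. SESN1 averaged 10.03 ± 1.32 TPM in radioresistant and 12.1 ± 2.24 TPM in control cells, TIGAR 5.12 ± 0.152 and 4.97 ± 1.12 TPM, and FDXR 21.9 ± 4.56 and 21.8 ± 6.77 TPM (SD, n = 3 each). ZMAT3, an RNA-binding protein gene, stood at 11.9, 13.8 and 10.4 TPM in radioresistant libraries, against 32.4, 30.7 and 24.9 TPM in control libraries. ZMAT3 fell by 1.22 (SE 0.149, adjusted p = 1.0e-04), with every radioresistant library under every control library. FBXO22, a ubiquitin ligase subunit gene, had a difference of -0.29 (adjusted p = 0.14), and without control replicate 3 it fell by 0.41 (adjusted p = 0.010, range 0.010 to 0.39).

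**Figure D2:**
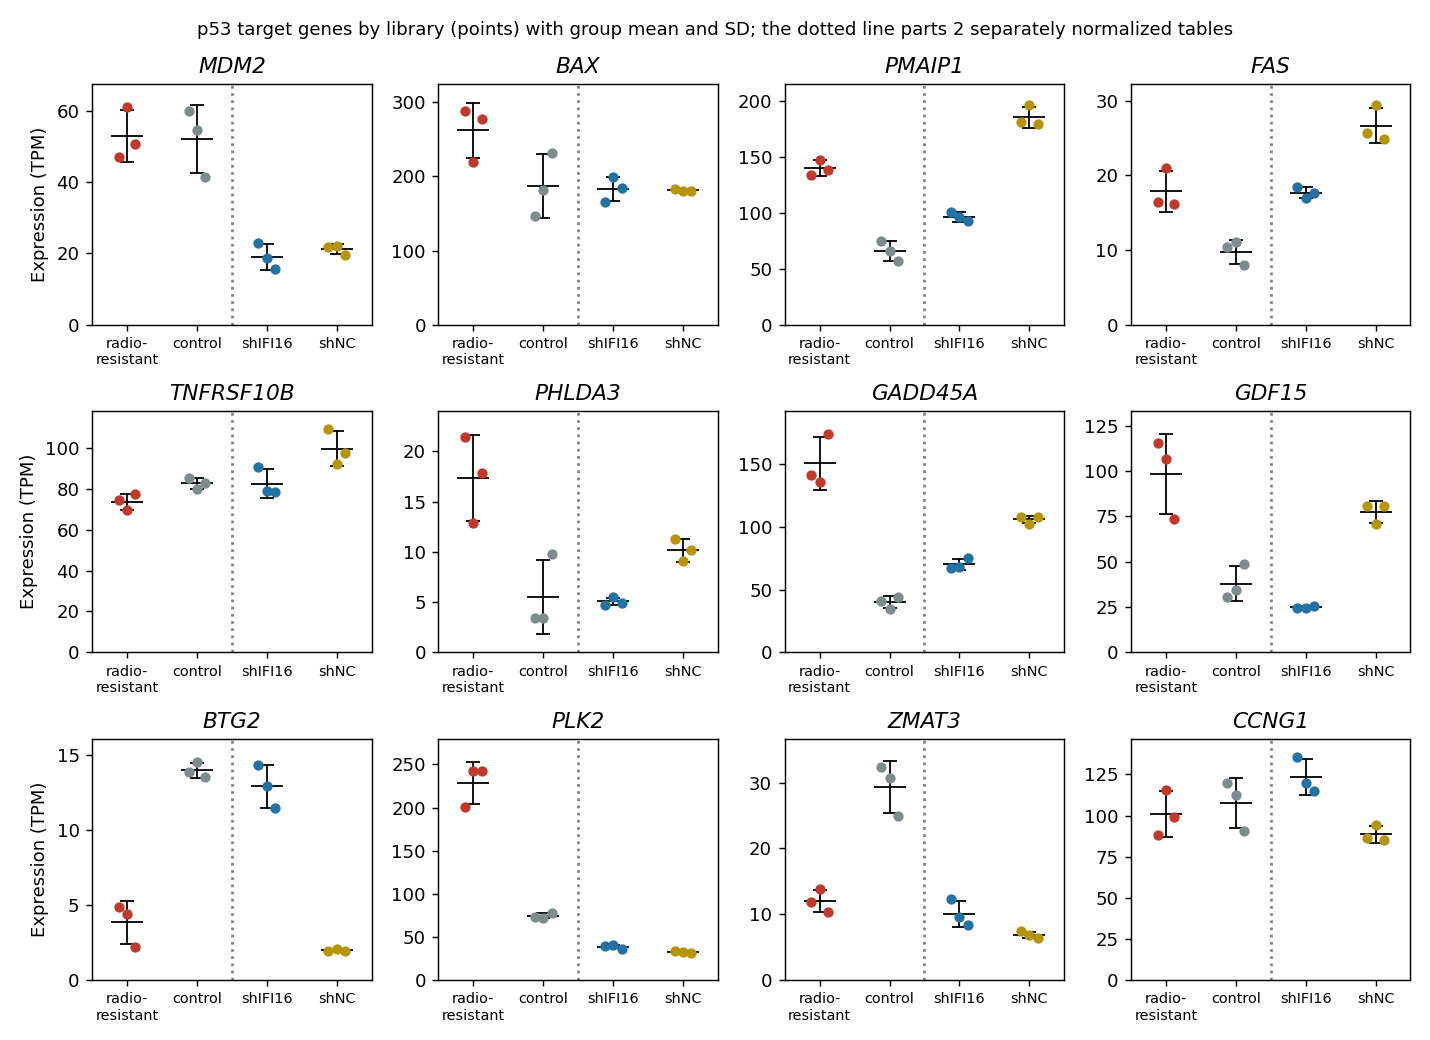
TPM of 12 p53 targets in each library (points), with the mean (bar) and SD (whiskers) of 3 libraries; radioresistant and control come from 1 table, shIFI16 and shNC from the other. PMAIP1, PHLDA3, GADD45A, GDF15 and FAS stand higher in radioresistant than in control libraries and lower in shIFI16 than in shNC libraries, and BTG2 and ZMAT3 show the reverse.

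After knockdown of IFI16, 5 of 29 tested p53 targets rose, 9 fell and 15 did not pass. GDF15, PMAIP1, PHLDA3, GADD45A, FAS, DDB2, AEN, TP53I3 and TNFRSF10B were lower in shIFI16 cells, and BTG2, ZMAT3, CCNG1, PPM1D and PLK2 were higher. No gene of cell death and survival passed as higher, and 6 of 11 tested ones fell. Of these falls, those of TNFRSF10B, AEN and TP53I3 lost the call under 4, 5 and 7 of 13 alternatives. EI24, of the same role, had a difference of 0.18 next to the threshold (limma adjusted p = 0.0503). Over all 12567 genes tested, 32.9% passed (16.6% higher and 16.3% lower), against 48.3% of the p53 targets. The median change was -0.12 over the p53 targets and 0.02 over all genes. Without shNC replicate 1, 5 p53 targets were called lower in place of 9.

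GDF15 had the largest fall. It stood at 24.5, 24.3 and 25.6 TPM in shIFI16 libraries, against 80.8, 70.7 and 80.8 TPM in shNC libraries, and fell by 1.60 (SE 0.081, limma adjusted p = 9.3e-10). PMAIP1 stood at 100.4, 96.3 and 92.3 TPM in shIFI16 libraries, against 181, 197 and 179.5 TPM in shNC libraries, and fell by 0.94 (SE 0.065, adjusted p = 2.6e-08). Both genes held tight groups that lay well apart. PHLDA3 stood at 4.74, 5.50 and 4.91 TPM in shIFI16 libraries, against 11.3, 9.03 and 10.1 TPM in shNC libraries, and fell by 0.88 (SE 0.115, adjusted p = 2.6e-05). GADD45A stood at 67.5, 67.7 and 75.0 TPM in shIFI16 libraries, against 108, 102 and 108 TPM in shNC libraries, and fell by 0.59 (SE 0.069, adjusted p = 8.3e-06). FAS, whose window is printed above, stood at 18.5, 17.0 and 17.6 TPM in shIFI16 libraries, against 25.7, 29.4 and 24.9 TPM in shNC libraries. It fell by 0.56 (SE 0.094, adjusted p = 2.5e-04). In each of these 5 genes all shIFI16 libraries lay under all shNC libraries.

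Smaller falls were less firm. DDB2, the gene with the exact pair of decamers, stood at 17.7, 18.5 and 18.3 TPM in shIFI16 libraries, against 24.4, 22.01 and 21.8 TPM in shNC libraries, and fell by 0.31 (adjusted p = 0.017). TNFRSF10B stood at 90.9, 79.0 and 78.4 TPM in shIFI16 libraries, against 109.6, 92.6 and 97.6 TPM in shNC libraries, and fell by 0.27 (adjusted p = 0.017). TP53I3 stood at 32.7, 37.1 and 39.9 TPM in shIFI16 libraries, against 44.8, 49.3 and 40.4 TPM in shNC libraries, and fell by 0.29 (adjusted p = 0.028). These groups did not overlap, though for TP53I3 the nearest libraries were 39.9 and 40.4 TPM. AEN stood at 21.8, 24.2 and 18.4 TPM in shIFI16 libraries, against 27.1, 28.8 and 23.9 TPM in shNC libraries, which overlapped, and fell by 0.30 (adjusted p = 0.041). Without shNC replicate 1 the adjusted p was 0.092 for DDB2, 0.086 for TNFRSF10B, 0.053 for TP53I3 and 0.085 for AEN. Without shIFI16 replicate 2 it was 0.052 for DDB2, 0.081 for TNFRSF10B and 0.066 for TP53I3. Without shNC replicate 2 it was 0.15 for TP53I3 and 0.17 for AEN, without shIFI16 replicate 1 it was 0.077 for TP53I3, and without shIFI16 replicate 3 it was 0.15 for AEN. Over all alternatives the adjusted p ranged from 0.0034 to 0.092 for DDB2, 8.6e-04 to 0.086 for TNFRSF10B, 0.0095 to 0.15 for TP53I3 and 0.0023 to 0.17 for AEN. The call of TP53I3 was lost under 7 of 13 alternatives.

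BTG2 had the largest change of all p53 targets here. It stood at 14.3, 12.9 and 11.5 TPM in shIFI16 libraries, against 1.91, 2.02 and 1.95 TPM in shNC libraries, and rose by 2.23 (SE 0.118, limma adjusted p = 1.6e-09). CCNG1 stood at 136, 119.7 and 115 TPM in shIFI16 libraries, against 86.5, 94.2 and 84.9 TPM in shNC libraries, and rose by 0.47 (SE 0.075, adjusted p = 1.5e-04). The feedback phosphatase gene PPM1D stood at 10.1, 9.84 and 9.99 TPM in shIFI16 libraries, against 7.39, 7.25 and 7.49 TPM in shNC libraries, and rose by 0.39 (adjusted p = 0.0076). Groups were apart for all 3 genes. ZMAT3 stood at 12.2, 9.53 and 8.28 TPM in shIFI16 libraries, against 7.36, 6.77 and 6.36 TPM in shNC libraries, and rose by 0.48 (SE 0.129, adjusted p = 0.0096). PLK2 stood at 39.3, 40.1 and 36.2 TPM in shIFI16 libraries, against 33.4, 32.5 and 30.5 TPM in shNC libraries, and rose by 0.25 (adjusted p = 0.027). The call of PLK2 ended without shIFI16 replicate 2 (adjusted p = 0.13), shNC replicate 2 (0.063) or shNC replicate 3 (0.12), within a range of 0.0045 to 0.13. Levels of PLK2 in these hairpin cells were far under the 201 to 243 TPM of radioresistant libraries, a gap between separately normalized tables that was not tested.

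MDM2 stood at 22.8, 18.7 and 15.6 TPM in shIFI16 libraries, against 21.9, 22.1 and 19.6 TPM in shNC libraries. These overlapped, and the difference was -0.16 (95% interval -0.42 to 0.09, adjusted p = 0.32). Without shIFI16 replicate 1 MDM2 fell by 0.29 (adjusted p = 0.028, range 0.028 to 0.83). BAX stood at 166, 199 and 184 TPM in shIFI16 libraries, against 183, 180.2 and 181 TPM in shNC libraries, with a difference of 0.01 (interval -0.13 to 0.16). BBC3 stood at 3.23, 3.09 and 3.21 TPM in shIFI16 libraries, against 5.71, 3.25 and 4.10 TPM in shNC libraries. All shIFI16 libraries lay under all shNC libraries for BBC3, but the difference of -0.33 did not pass (SE 0.151, adjusted p = 0.10). Without shNC replicate 2 BBC3 fell by 0.49 (adjusted p = 0.032, range 0.032 to 0.48). EI24 stood at 130.03, 135 and 117 TPM in shIFI16 libraries, against 112, 116 and 108 TPM in shNC libraries, a difference of 0.18 next to the threshold (adjusted p = 0.0503). It passed without shIFI16 replicate 3 (difference 0.24, adjusted p = 0.011, range 0.0095 to 0.24). XPC averaged 44.8 ± 1.63 TPM in shIFI16 and 43.9 ± 2.50 TPM in shNC cells, and TP53INP1 averaged 2.85 ± 0.393 TPM in shIFI16 and 3.05 ± 0.296 TPM in shNC cells (SD, n = 3 each), and neither passed. The other 9 tested genes, which were PLK3, SESN1, TIGAR, FDXR, POLK, POLH, RRM2B, TRIAP1 and FBXO22, had differences between -0.29 (PLK3, adjusted p = 0.063) and 0.22 (SESN1, adjusted p = 0.18). SESN1 averaged 6.001 ± 0.392 TPM in shIFI16 and 5.03 ± 0.584 TPM in shNC cells (SD, n = 3 each), without overlap, and PLK3 10.1 ± 0.989 and 12.6 ± 1.49 TPM, with overlap. PLK3 passed without shIFI16 replicate 1 (difference -0.35, adjusted p = 0.018) or shNC replicate 2 (-0.38, 0.038), and RRM2B without shIFI16 replicate 1 (-0.25, 0.042), with ranges of 0.015 to 0.22 for PLK3 and 0.042 to 0.50 for RRM2B.

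The 2 comparisons share no library, and each gene can be read in both. Of the 29 genes, 6 rose in radioresistant cells and fell in shIFI16 cells, which were PMAIP1, FAS, AEN, PHLDA3, GADD45A and GDF15, or 20.7%. Of the 12359 genes tested in both comparisons, 4.42% did so. BTG2 and ZMAT3 fell in radioresistant cells and rose in shIFI16 cells (6.90% of the p53 targets and 4.81% of all genes). PLK2 rose in both (3.45% of the p53 targets and 3.12% of all genes), TP53I3 fell in both (3.45% and 3.97%), and 11 genes passed in neither. The genes were chosen with earlier results of these libraries known, so these shares are a description. Sizes differed between genes, since GADD45A rose by 1.89 and fell by 0.59, whereas GDF15 rose by 1.36 and fell by 1.60. Summed over all 31 genes, libraries held 1594 to 1613 TPM in radioresistant cells against 1204 to 1224 TPM in control cells, and 1088 to 1153 TPM in shIFI16 cells against 1256 to 1298 TPM in shNC cells. Such sums weigh abundant genes most and do not speak for the whole set. PLK2, GADD45A, BAX and PMAIP1 averaged 229, 151, 262 and 140 TPM in radioresistant cells, against 74.6, 39.9, 187 and 65.9 TPM in control cells. Of the tested genes 8 rose and 6 fell in radioresistant cells.

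**Figure D3:**
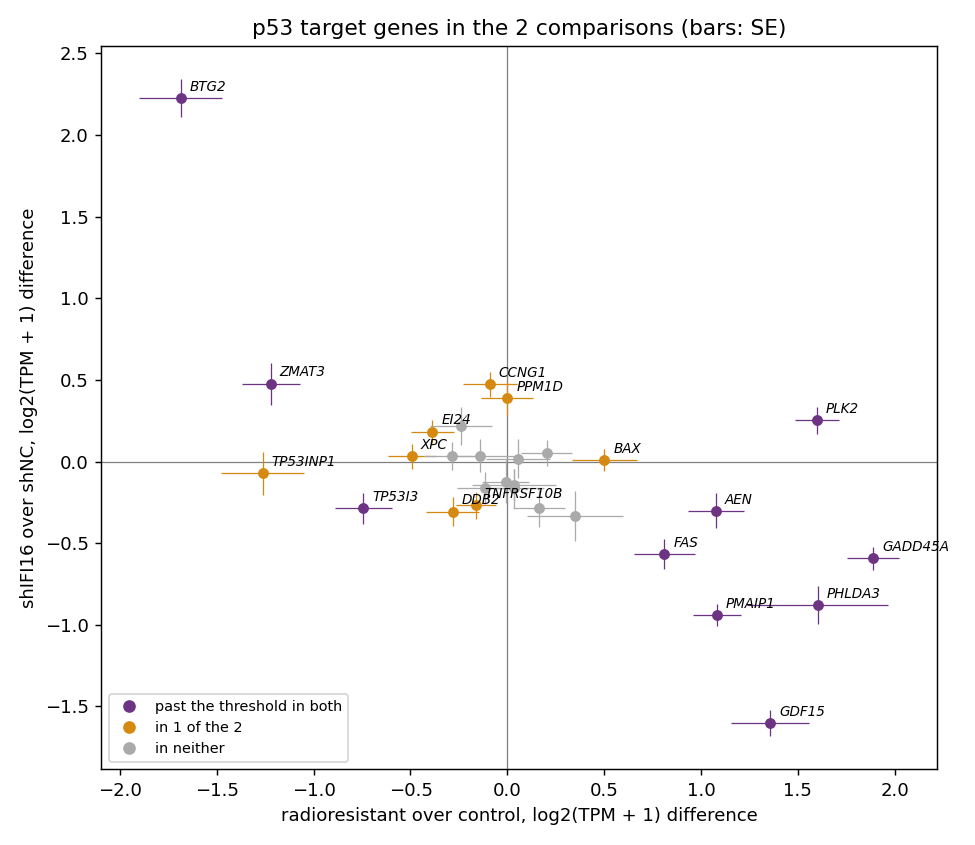
Log2(TPM + 1) differences of 29 p53 targets, radioresistant over control on the horizontal axis and shIFI16 over shNC on the vertical axis, with SE bars and names for genes past the threshold in either. PMAIP1, FAS, AEN, PHLDA3, GADD45A and GDF15 lie at the lower right, BTG2 and ZMAT3 at the upper left, PLK2 at the upper right and TP53I3 at the lower left.

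Among 31 tested regulators and relatives of p53, 4 rose and 7 fell in radioresistant cells, 35.5% in all against 43.9% of all genes. PML, a nuclear body protein that is also a p53 target, rose by 1.42, and HIPK2, a kinase that phosphorylates p53, and RCHY1, a ligase for p53, fell, with changes of -1.11 and -1.19. In shIFI16 cells 6 of 31 rose and 4 fell, 32.3% in all against 32.9% of all genes, with USP7, a deubiquitinase of MDM2 and p53, up by 0.44, RPL5, a ribosomal protein that binds MDM2, up by 0.26, and the kinase CHEK2 lower, at -0.33. With median-ratio scaling 7 regulators rose in radioresistant cells. In shIFI16 cells 3 rose without shIFI16 replicate 2 or shNC replicate 1 and with plain limma, and 7 fell with median-ratio scaling.

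A list of 78 further p53 targets also held changes in both directions. In radioresistant cells 18 of 69 tested genes rose and 18 fell, 52.2% in all against a background of 43.9%. TRIM22, which is also induced by interferon, rose by 2.69, and FAM210B and TGFA, a ligand of the EGF receptor, fell, with changes of -2.19 and -1.68. In shIFI16 cells 12 of 67 rose and 18 fell, 44.8% against 32.9%. SULF2, a sulfatase of heparan sulfate, and CYFIP2, a regulator of actin, rose by 1.49 and 1.35, and the cytokine LIF and RPS27L fell, with changes of -0.94 and -0.66. The number that rose was 7 without shIFI16 replicate 1 or shNC replicate 3.

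p53 is also known to lower genes of cell division through p21 and the DREAM complex. Of 55 such genes, 11 rose and 3 fell in radioresistant cells, 25.5% in all against 43.9% of all genes. MCM5, of the replicative helicase, RAD54L, of homologous recombination, and CDC20, of the anaphase ligase, rose by 0.58, 0.59 and 0.48, and the checkpoint kinase BUB1B fell by 0.73. The number that rose was 4 without radioresistant replicate 3, 6 without radioresistant replicate 2, 7 without control replicate 2 and 20 with median-ratio scaling, and the number that fell was 10 without control replicate 3 and 1 without radioresistant replicate 1 or control replicate 2. In shIFI16 cells 11 rose and 23 fell, 61.8% against 32.9%. The centromere histone CENPA, the ubiquitin-conjugating enzyme UBE2C and the mitotic kinase CDK1 fell, with changes of -0.52, -0.49 and -0.43, and CDC6, a licensing factor, rose by 0.48.

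The integrated stress response is known to share targets with p53. In radioresistant cells 13 of 18 genes of this response rose and 2 fell, 83.3% in all against 43.9% of all genes, with a median change of 0.80 against -0.11 over all genes. The transcription factor ATF4 stood at 660.1, 660.4 and 665 TPM in radioresistant libraries, against 329, 328 and 333 TPM in control libraries, and rose by 1.00 (SE 0.093, limma adjusted p = 1.7e-05). TRIB3, its pseudokinase target, and the amino acid transporter subunit SLC3A2 rose by 1.40 and 1.15, while the serine synthesis enzyme PHGDH fell by 1.16. In shIFI16 cells 4 of 18 rose and 6 fell, 55.6% in all against 32.9% of all genes. The median change there was 0.005 over the 18 genes, against 0.02 over all genes. Summed over the 18 genes, libraries held 1355 to 1375 TPM in shIFI16 cells against 1256 to 1273 TPM in shNC cells. The sums were 2173 to 2223 TPM in radioresistant against 1581 to 1793 TPM in control cells, and such sums weigh abundant genes most. The mTORC1 inhibitor DDIT4 and the lipoprotein receptor VLDLR rose by 1.35 and 0.88, and the stress factors NUPR1 and ATF3 fell, with changes of -0.53 and -0.65. The part of these genes in the changes of the p53 targets was not tested.

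Open chromatin was read from summits of peaks, called by the authors in 1 library a condition. The radioresistant library held 12877 summits and the control library 2454, so presence of a summit cannot be compared between them as such. A summit lay within 1 kb of a RefSeq start at 8 of the 24 p53 targets with a listed start in the radioresistant library, against 19.1% of all genes. In the control library this was so at 2 of the 24, against 3.57% of all genes. TP53I3 and CCNG1 had a summit in both. At TP53I3 it lay 664 bases from the nearest start in the radioresistant and 424 bases in the control library (chromosome 2, 24084170 and 24084410), with the authors' -log10 q of 12.9 and 7.90. At CCNG1 it lay 66 and 264 bases away (chromosome 5, 163437661 and 163437859), with -log10 q of 10.5 and 4.22. PLK3, XPC, POLK, SESN1, TIGAR and FDXR had one in the radioresistant library alone, at 67 to 458 bases, with -log10 q of 2.80 to 7.43. None of these 6 genes rose and XPC fell in radioresistant cells, where 16.9% of all genes tested rose and 27.0% fell. A group of 6 genes is too small to be set apart from that background. PLK2, GDF15, PMAIP1, AEN, FAS and BAX, which rose in radioresistant cells, had none within 1 kb of a listed start in either library. Most genes had none either, given the shares of 19.1% and 3.57% above. GADD45A and PHLDA3, which also rose, had no listed start. A relation between summits and expression was not tested. With the same number of top-scoring summits in both libraries, 4 of the 24 had one in the radioresistant library, against 4.67% of all genes, and 2 of the 24 in the control library, against 3.57%. Within 10 kb, with all summits, 8 of the 24 had one in the radioresistant library, against 27.4% of all genes. In the control library 3 of the 24 had one within 10 kb, against 5.45% of all genes.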

How the data were processed

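RNA-seq of 12 libraries gave expression, and ATAC-seq of 2 libraries gave open chromatin. The authors deposited 2 tables of TPM values, recognised by columns that sum to 1000000, and TPM keeps no depth, so no interval from counting was possible. Per the submitters' processing notes, featureCounts, Cufflinks 2.2.1, TopHat and Trim Galore 0.6.6 were used with build hg38. Which tool made the TPM, and whether strand was used, is not given in the sources used here. The span of 10 of the 31 genes overlaps that of another gene of the tables, so their reads may not have been told apart (FAS, MDM2, CCNG1, AEN, SESN1, POLH, FBXO22, TNFRSF10B, TP53I3 and TP53INP1). Per the same notes, ATAC-seq work also named MACS2 2.1.4, Bowtie2 2.2.5 and SAMtools 1.10. The authors deposited summits with a -log10 q-value, by the layout of the files.

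Each comparison was fitted across all genes of its own table with limma 3.58.1 in R 4.3.3 (trend, robust) on log2(TPM + 1), two-sided, with Benjamini-Hochberg adjusted p-values and a threshold of 0.05. Fold changes on this scale understate changes of low genes. A gene entered the test when 3 or more of the 6 libraries reached 1 TPM, and 28 entries with dates in place of names were dropped. Members and lists were chosen with earlier results of these data known. Every gene of the 31 is accounted for, those past the threshold in either comparison and MDM2, BAX, BBC3, PMAIP1, FAS and TNFRSF10B by library, and of other lists up to 4 genes of smallest p, some of which are not reported here. Alternatives were another pseudocount (0.1 TPM), no filter, a filter on a mean of 5 TPM, median-ratio scaling, quantile normalization, plain limma, a replicate block and leaving out each library. The pair of decamers was searched after the single decamer had been counted.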

Additional observations from a re-analysis of the deposited data

How the results depend on the processing

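The numbers of p53 targets called in radioresistant cells (8 higher, 6 lower) ranged from 7 to 9 and from 5 to 8 when 1 library was left out, and stayed within 1.5 times under every other alternative. In shIFI16 cells, again with 1 library left out, the 5 higher calls ranged from 4 to 6 and the 9 lower calls from 5 (without shNC replicate 1) to 11. Over all genes, and with 1 library left out, calls lower in radioresistant cells ranged from 2237 (without control replicate 2) to 4395, and calls higher in shIFI16 cells from 1318 (without shIFI16 replicate 2) to 2310. With the same number of top-scoring summits, 4 p53 targets had a summit in the radioresistant library in place of 8. Deviations of same-numbered libraries from the group means correlated at -0.38, 0.24 and 0.08 in the first comparison and at 0.22, 0.09 and 0.03 in the second. Differently numbered libraries ranged from -0.43 to 0.39 and from -0.23 to 0.15. With 3 libraries a group such values cannot settle whether same-numbered libraries were pairs. A replicate block gave 3001 higher and 2609 lower calls over all genes in shIFI16 cells, against 2088 and 2052 without it. In radioresistant cells it gave 2110 and 3462, against 2220 and 3542. With a replicate block, 8 p53 targets were higher and 6 lower in radioresistant cells, and 6 higher and 11 lower in shIFI16 cells.

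Of 751 refits of single genes, 678 kept direction and side of the threshold, 30 lost the call, 16 gained one and 27 turned sign, all 27 in genes that passed in neither fit. In radioresistant cells the change turned to 0.033 (CCNG1), 0.0086 (RRM2B), 0.11 (POLH) and 0.12 (PPM1D) with median-ratio scaling, and to 0.10 (POLH) and 0.12 (PPM1D) with quantile normalization. BAX in shIFI16 cells turned to -0.011 with median-ratio scaling. With 1 library left out, changes in radioresistant cells ranged from -0.12 to 0.14 for MDM2, -0.21 to 0.0024 for CCNG1, -0.19 to 0.25 for FDXR, -0.086 to 0.19 for TIGAR, -0.069 to 0.029 for POLH and -0.076 to 0.065 for PPM1D. In shIFI16 cells they ranged from -0.052 to 0.079 for BAX, -0.016 to 0.057 for XPC, -0.15 to 9.3e-04 for TP53INP1, -0.017 to 0.064 for TIGAR, -0.075 to 0.10 for POLK and -3.7e-04 to 0.065 for FBXO22. Without a low-value filter and with plain limma, the calls of BAX in radioresistant cells and of TNFRSF10B, TP53I3 and AEN in shIFI16 cells were lost, that of TP53I3 also with quantile normalization. The causes were not tested. Depth is unknown for TPM, so precision rests on 3 libraries a group.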
